A study of Mus musculus with 28 samples.

Results

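The genes described here encode 3 families of conjugating enzymes, the UDP-glucuronosyltransferases (Ugt), the cytosolic sulfotransferases (Sult) and the glutathione transferases (Gst) of the alpha, kappa, mu, omega, pi and theta classes. They were taken from a bulk RNA-seq count table of sorted medullary thymic epithelial cells (mTEC) by gene symbol. Of 55011 rows in the table, 71 had a matching name. Leaving out 7 pseudogene symbols and 4 rows with fewer than 10 reads over all libraries (Sult2a2 with 3, Sult3a2 with 6, Ugt2a1 and Ugt2a2 with 0) gave 60 genes, of which 20 were Ugt, 19 Sult and 21 Gst. The rule itself uses gene symbols and that read minimum only.

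All mice were C57BL/6 and their age is not stated. The WT groups were entero-hepato mTEC (3 libraries) and mTEC outside that gate (3 libraries); the antibodies that define the gate are not named. In mTEClo, described as post-Aire cells, all 4 genotypes carried Foxn1cre(+/-), with recombinase expression driven by Foxn1 in thymic epithelium. These were double mutants with Hnf4a(fl/fl)Hnf4g(-/-) (4 libraries), Hnf4g-removed mice with Hnf4a(fl/+)Hnf4g(-/-) (3 libraries), Hnf4a-removed mice with Hnf4a(fl/fl)Hnf4g(+/-) (3 libraries) and controls with Hnf4a(fl/+)Hnf4g(+/-) (4 libraries). mTEChi were sorted from double mutants and controls of the same genotypes (4 libraries each). The controls therefore carried Foxn1cre and 1 altered copy of each Hnf4 gene, Hnf4g was a plain null allele while Hnf4a was floxed, and each library came from about 1000 sorted cells.

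Glucuronosyltransferases attach glucuronic acid from UDP-glucuronic acid, sulfotransferases attach sulfate from the donor PAPS, and glutathione transferases attach glutathione. Each reaction makes a lipophilic or reactive compound more soluble, and liver and gut epithelium are their classic sites. Medullary thymic epithelium transcribes many genes of peripheral organs, including those of mimetic cells that resemble gut and liver epithelium, where HNF4A and HNF4G are known nuclear receptors of the tissue's gene program.

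The libraries held 4330120 to 8342583 assigned reads. Levels are given as CPM, read counts scaled to a common library size with TMM factors over all 28 libraries. Of 7 epithelial and mTEC marker genes, at least 6 had reads in each group, and Ccl21a was the one without reads in 7 of the 8 groups. Hnf4g had 4.42, 3.19, 4.75 and 8.297 CPM in double-mutant mTEClo, against 9.002, 12.8, 15.6 and 12.7 CPM in control mTEClo, and the groups did not overlap (log2 fold change -1.28, SE 0.30, adjusted p = 0.0633, not called). Hnf4g had 8.77, 7.58 and 7.75 CPM in Hnf4g-removed and 9.20, 7.80 and 6.23 CPM in Hnf4a-removed mTEClo. The Hnf4g-removed libraries were below all controls (log2 fold change -0.64, adjusted p = 0.637) but not below the Hnf4a-removed ones, from which the log2 difference was 0.06 (adjusted p = 0.983). In mTEChi Hnf4g averaged 7.55 ± 3.55 CPM in double mutants and 19.8 ± 3.30 CPM in controls (SD, n = 4 each; adjusted p = 0.0862). The level of Hnf4g therefore does not tell the single mutants apart, and genotypes are those of the labels. Hnf4a had 2.95, 3.05, 2.25 and 4.22 CPM in double-mutant mTEClo and 2.25, 3.63, 5.603 and 6.86 CPM in control mTEClo, which overlap; counts over a whole gene do not check the removal of a floxed exon. The labels do not say that libraries came from separate animals, so the p-values measure the spread between libraries. In bulk samples, fewer cells of a type and less RNA per cell cannot be told apart.

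The promoters of Sult1b1, Sult1d1 and Sult1c2 are printed because these sulfotransferase genes were higher in the entero-hepato gate and had the lowest levels in one or more mutant groups. Each sequence runs from 250 bases before to 50 after a transcription start in RefSeq, 5′ to 3′ on the gene's strand, with GRCm38.p6 coordinates (minus strand in all 3 cases). They lie at chr5:87536173-87536472 for Sult1b1, at chr5:87568957-87569256 for Sult1d1 and at chr17:53845909-53846208 for Sult1c2. Capitals mark a match to the HNF4 motif CAAAGNNCA, searched on both strands.
Sult1b1: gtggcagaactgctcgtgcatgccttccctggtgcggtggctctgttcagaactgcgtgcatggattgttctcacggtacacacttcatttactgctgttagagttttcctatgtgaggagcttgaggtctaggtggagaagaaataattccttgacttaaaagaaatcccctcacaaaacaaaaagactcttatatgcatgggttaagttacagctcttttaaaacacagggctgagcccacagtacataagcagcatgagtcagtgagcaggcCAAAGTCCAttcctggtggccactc
Sult1d1: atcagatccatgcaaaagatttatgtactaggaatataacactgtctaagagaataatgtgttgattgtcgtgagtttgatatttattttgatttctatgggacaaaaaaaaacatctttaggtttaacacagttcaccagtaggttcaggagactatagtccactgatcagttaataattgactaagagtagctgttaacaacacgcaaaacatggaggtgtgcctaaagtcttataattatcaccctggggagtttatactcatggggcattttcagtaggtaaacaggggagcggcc
Sult1c2: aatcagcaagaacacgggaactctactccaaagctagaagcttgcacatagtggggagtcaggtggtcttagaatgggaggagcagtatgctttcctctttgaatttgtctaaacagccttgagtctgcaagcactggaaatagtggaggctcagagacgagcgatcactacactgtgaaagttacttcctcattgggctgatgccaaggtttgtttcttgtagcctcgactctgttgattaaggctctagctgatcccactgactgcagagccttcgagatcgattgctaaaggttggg
Sult1b1 held CAAAGTCCA 25 bases after the start. The Sult1d1 and Sult1c2 windows held no match, which says only that these letters are not there. The printed Sult1b1 window lies inside the gene's annotated span (chr5:87513339-87538195). The window of a second listed start (chr5:87538146-87538445), at the 5′ end of that span, held no match either. Among 63 promoters of 53 of the 60 genes, 4 matched CAAAGNNCA (Sult1b1, Sult1a1, Gsto2 and Ugt1a6a), and 6.36% of all 32851 promoters in the table did. The full CAAAGTCCA, which is a form of that motif, was found in Sult1b1 among these genes and in 0.475% of all promoters. TGACNNNGC, the core of the antioxidant response element, matched in Gsta3, Gstm5 and Gstm7 and in 12.4% of all.

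The members' mean levels spanned a wide range. Per kilobase of exon not shared with another gene, Gsta4 was the highest member in 6 of the 8 groups, among them the entero-hepato gate (383 CPM per kb), mTEC outside it (67.8) and control mTEClo (233). Gsta4 encodes an alpha-class enzyme that clears the lipid peroxidation product 4-hydroxynonenal. Gstm1, a mu-class enzyme, was the highest in double-mutant and control mTEChi (185 and 202 CPM per kb). In the gate 24 of the 60 members averaged over 10 CPM, against 18 outside it, 16 in double-mutant mTEClo, 18 in control mTEClo and 24 in both mTEChi groups. The 7 Sult2a genes within chr7:13623967-14494230, hydroxysteroid sulfotransferases typical of liver, were below the count filter in all comparisons.

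**Figure D1:**
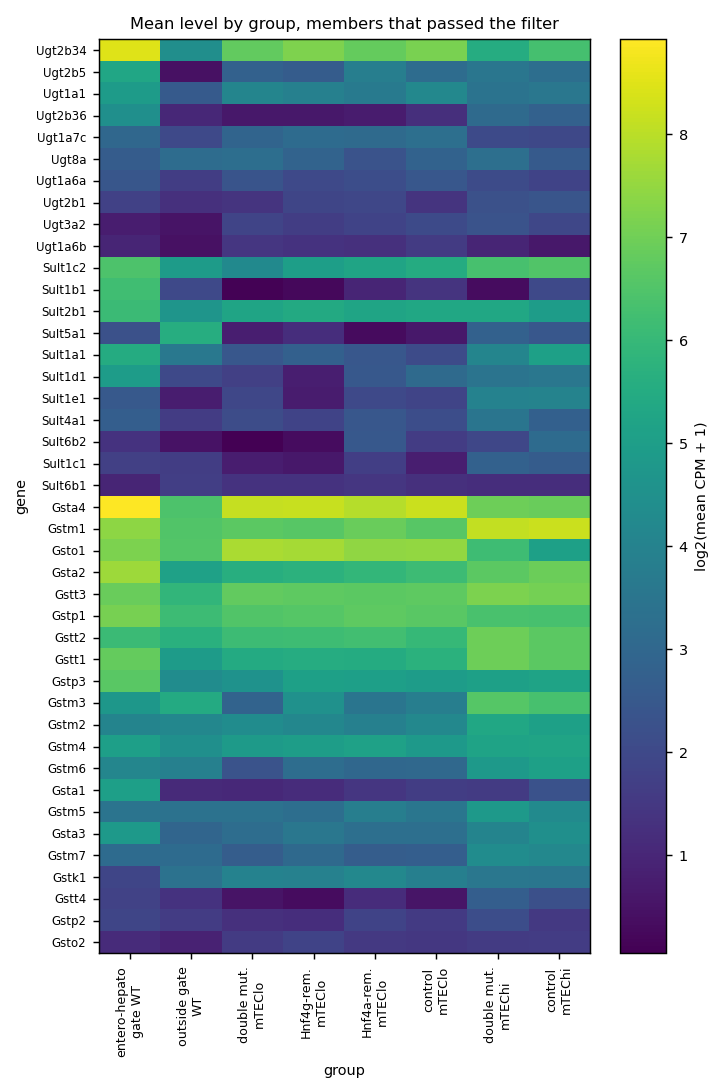
Mean level of each Ugt, Sult and Gst gene that passed the count filter in at least 1 comparison (rows, in family order) in the 8 groups (columns), as log2(mean CPM + 1) with the colour scale at the right. Ugt2b34 and Gsta4 are brightest in the entero-hepato gate, where they averaged 359 and 484 CPM.

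Which conjugating enzyme genes distinguish entero-hepato mTEC from other mTEC was addressed first. Many of the tested members rose in the gate, among them Ugt2b34, Ugt2b5, Ugt2b36, Ugt1a1, Sult1b1, Sult1d1 and all 4 alpha-class Gst genes. The summed level of the 20 Ugt genes was 479 ± 40.6 CPM in the gate and 44.1 ± 8.01 CPM outside it (SD, n = 3 each). The 19 Sult genes summed to 321 ± 42.0 CPM in the gate and 127 ± 21.4 CPM outside it, and the 21 Gst genes to 1704 ± 181 CPM in the gate and 664 ± 42.8 CPM outside it. Sult5a1 and Gstk1 were the members that fell.

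Of 36 members tested, 19 rose (52.8%) and 2 fell (5.56%), and 22.7% of all 16811 genes tested rose and 21.8% fell. The members' median log2 fold change was 0.98, beside -0.05 over all genes. The other 24 members did not pass the count filter. Some tested members passed it only through the gate libraries, where they were high. Among these were Ugt2b5, Gsta1 and Ugt2b36, with 5, 16 and 15 reads in all outside the gate. The share that rose and the median include them. With plain library totals in place of TMM, the all-gene median shifted by -0.37 and the split of all called genes became 2403 higher and 6273 lower, against 3822 and 3657 with TMM. Under those totals 20 of the same 21 members were called, in the same directions; Ugt1a7c was lost and Gstm3 added. With no low-count filter 28 members were called, 8 of them added (Gstm3, Gstm4, Gsto1, Gstt2, Sult1e1, Ugt1a10, Ugt1a9 and Ugt2b35). The call of Ugt1a7c was also lost when any 1 of the 6 libraries was left out (adjusted p 0.0606 to 0.123), and that of Gstk1 without replicate 1 from outside the gate (adjusted p = 0.061).

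Ugt2b34, a member of the Ugt2b group that handles steroids and drugs, had 387, 315 and 376 CPM in the gate, against 29.3, 8.05 and 23.8 CPM outside it. All gate libraries were above all others, with a log2 fold change of 4.12 (SE 0.35, adjusted p = 2.91e-05). Ugt2b5 had 34.4, 38.0 and 41.8 CPM in the gate, against 0.844, 0.217 and 0 CPM outside it. Outside the gate it was represented by 5 reads in all, so its fitted log2 fold change of 6.65 (SE 0.50) is imprecise, and 49.97% of its 38-base words also occur in other genes, chiefly Ugt2b38 and Ugt2b37. Ugt2b36 had 21.1, 25.4 and 16.9 CPM in the gate and 0.844, 0.652 and 1.62 CPM outside it (log2 fold change 4.29, SE 0.41). Outside the gate Ugt2b36 had 15 reads in all, so this fold is imprecise as well. Ugt1a1, the enzyme that conjugates bilirubin, had 34.4, 30.2 and 23.2 CPM in the gate, against 5.28, 3.70 and 5.86 CPM outside it (log2 fold change 2.54, SE 0.27, adjusted p = 0.000113). The Ugt1a genes share their last exons, and 82.7% of the exon bases of Ugt1a1 belong to other genes as well, so how reads were divided among them is uncertain. Ugt1a7c had 6.89, 7.64 and 6.68 CPM in the gate and 1.69, 3.91 and 3.43 CPM outside it. Below the filter, Ugt2b35 had 12, 22 and 12 reads in the gate against 0, 0 and 1 outside it, and Ugt1a10 had 6, 7 and 8 against 1, 0 and 0; both were picked after their values were seen.

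Among the sulfotransferases, Sult1b1, which sulfates phenols and thyroid hormones, had 85.2, 71.2 and 62.0 CPM in the gate, against 1.69, 6.52 and 0.808 CPM outside it. The lowest gate library was far above the highest of the others (log2 fold change 4.59, SE 0.48, adjusted p = 0.000104). Sult1d1, a sulfotransferase of catecholamines in mice, had 36.2, 27.4 and 27.2 CPM in the gate and 4.22, 3.70 and 1.01 CPM outside it (log2 fold change 3.33, SE 0.42, adjusted p = 0.000271). Sult1c2 had 87.0, 103 and 66.9 CPM in the gate and 34.2, 31.1 and 21.6 CPM outside it (log2 fold change 1.55, SE 0.21). Sult1a1, the main phenol sulfotransferase, rose by 1.98 (SE 0.43) and Sult2b1, which sulfates cholesterol, by 1.44 (SE 0.19). Sult5a1, whose substrates are little known, went the other way, with 3.23, 6.15 and 1.93 CPM in the gate and 53.2, 39.1 and 47.5 CPM outside it. It fell by 3.63 on the log2 scale (SE 0.36, adjusted p = 6.99e-05), with no overlap between groups.

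All 4 alpha-class transferases rose. Gsta4 had 624, 443 and 385 CPM in the gate, against 63.5, 125 and 69.1 CPM outside it (log2 fold change 2.48, SE 0.28, adjusted p = 0.000143). Gsta2 had 179, 205 and 204 CPM in the gate and 31.7, 39.6 and 29.9 CPM outside it (log2 fold change 2.52, SE 0.14). Gsta1 averaged 32.1 ± 9.02 CPM in the gate and 1.13 ± 0.353 CPM outside it, where it had 16 reads in all. Gsta3 averaged 27.0 ± 2.60 CPM in the gate and 6.68 ± 2.26 CPM outside it. The share of 38-base words found in other genes was 92.0% for Gsta1 and 57.0% for Gsta2, so reads may be split between these paralogs, whereas Gsta4 had none. Of the pi class, Gstp3 had 102, 97.5 and 99.97 CPM in the gate and 19.5 ± 1.33 CPM outside it (SD, n = 3; log2 fold change 2.34, SE 0.12, adjusted p = 2.32e-06). It had the smallest p of the members. Gstp1, the most studied pi-class enzyme, rose by 0.97 (SE 0.13), and 36.6% of its words occur in other genes, chiefly Gstp2. Of the theta class, Gstt1 rose by 1.92 (SE 0.20) and Gstt3 by 1.00 (SE 0.10). In the mu class 1 of 7 genes was called, Gstm1, which rose by 0.91 (SE 0.10), and the class median was 0.04. Gstk1, the mitochondrial and peroxisomal kappa-class enzyme, had 1.94, 2.61 and 3.69 CPM in the gate and 14.1, 8.26 and 6.26 CPM outside it. It fell by 1.79 (SE 0.46, adjusted p = 0.0123).

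**Figure D2:**
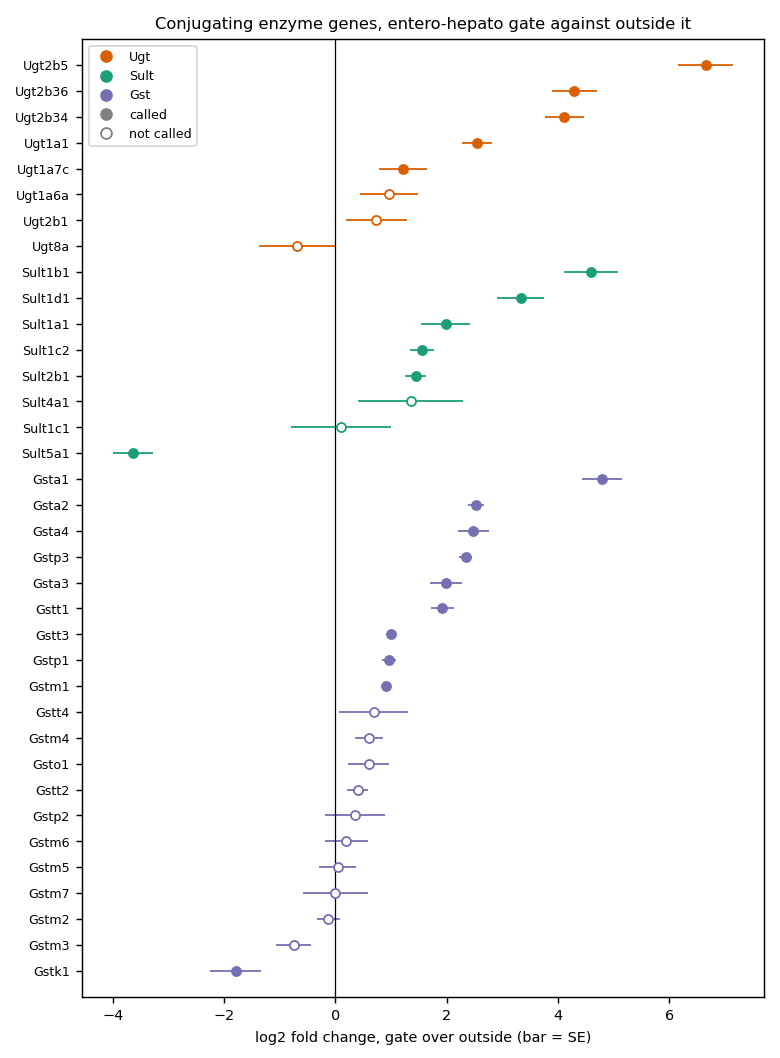
Log2 fold change, entero-hepato gate over mTEC outside it, for the 36 members tested, with SE bars; filled points were called at an adjusted p under 0.05 and colours mark the families. Ugt2b5 (6.65), Gsta1 (4.79) and Sult1b1 (4.59) lie furthest right, and Sult5a1 (-3.63) and Gstk1 (-1.79) are filled points left of 0.

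Neighbouring genes were called together in some clusters and not in others. Sult1b1 lies at chr5:87513339-87538195, Sult1d1 at chr5:87554645-87569027 and Sult1c2 at chr17:53829637-53846339, all on the minus strand (GENCODE M21, GRCm38). The chr5:86889767-87591594 interval holds 8 Ugt2 genes and Sult1b1, Sult1d1 and Sult1e1 (11 members in 702 kb). Of its 6 members tested in the gate comparison 5 rose, Ugt2b1 being the one not called. All 3 alpha-class genes at chr9:78182774-78355788 rose, 2 of 3 pi-class genes at chr19:4035407-4059569 and 2 of 4 theta-class genes at chr10:75774115-75837424. In the other clusters with tested members, 2 of 3 tested Ugt1a genes, 1 of 2 Sult1c genes, 1 of 7 mu-class genes and 0 of 1 tested omega-class gene rose. Over all genes tested 22.7% rose. Paralogs in a cluster can share reads, so they are not independent measurements.

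Genes that supply donors or move conjugates were read from lists of textbook members, whose counts stand beside 22.7% of all genes higher and 21.8% lower. For glucuronidation, 2 of 4 supply genes rose and 1 fell; Ugdh, which makes UDP-glucuronic acid, averaged 86.7 ± 23.7 CPM in the gate and 29.5 ± 5.58 CPM outside it (log2 fold change 1.54, SE 0.22). For sulfation, 4 of 8 genes of PAPS supply and recovery rose and none fell. Papss2, a PAPS synthase, averaged 239 ± 27.9 CPM in the gate and 92.6 ± 8.29 CPM outside it (log2 fold change 1.35, SE 0.11), and the sulfate transporter gene Slc26a2 averaged 224 ± 73.1 CPM in the gate and 51.0 ± 17.6 CPM outside it (log2 fold change 2.11, SE 0.29). For glutathione, 3 of 11 genes rose and 1 fell, with Gss, glutathione synthetase, at 149 ± 24.2 CPM in the gate and 42.3 ± 6.16 CPM outside it (log2 fold change 1.80, SE 0.15). Of 7 conjugate exporters 5 rose and 2 fell, and Abcc2, the apical exporter of glucuronides and glutathione conjugates, averaged 91.5 ± 38.7 CPM in the gate and 5.53 ± 0.707 CPM outside it (log2 fold change 4.02, SE 0.32). A list of hydrolases, not all of them deconjugating, gave 4 higher (Arsa, Ces1d, Ephx1 and Ephx2) and 1 lower (Gusb) of 6 tested. Other conjugating enzymes gave 3 higher and 1 lower of 6, and transferases and relatives outside the name rule 2 and 2 of 8. Xenobiotic and antioxidant regulators with their targets gave 4 and 1 of 13. The shares higher for glutathione, the relatives and the regulators were near that of all genes. Among the regulators, Nr1i2, the pregnane X receptor, averaged 12.3 ± 1.69 CPM in the gate and 1.75 ± 1.37 CPM outside it (log2 fold change 2.77, SE 0.63).

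Markers of other cells moved with the gate. The 8 myeloid and dendritic genes summed to 1179 to 1543 CPM in gate libraries and 441 to 638 CPM outside, and 6 erythroid genes to 173 to 253 CPM in the gate and 16.8 to 27.2 CPM outside. The 8 microfold genes summed to 3852 to 4705 CPM in the gate and 999.6 to 1067 CPM outside, and 8 tuft genes to 128 to 294 CPM in the gate and 1537 to 2383 CPM outside, with reads for every gene of these lists in both groups. Smaller shifts without overlap were seen for B cell genes, at 65.2 to 78.7 CPM in the gate and 49.0 to 55.1 CPM outside, ciliated genes, at 54.9 to 74.2 CPM in the gate and 109 to 209 CPM outside, and fibroblast and pericyte genes, at 175 to 223 CPM in the gate and 270 to 325 CPM outside. Their part in the results was not tested.

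The next comparisons asked what loss of the Hnf4 genes did to these genes in mTEClo. Few members were called. In double mutants Sult1c2 fell, in Hnf4g-removed mTEClo Sult1d1 fell, and in Hnf4a-removed mTEClo none was called. The 3 mutant groups were fitted against the same 4 control libraries, so their values are set side by side without a test of likeness.

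In double-mutant mTEClo 0 of 40 tested members were called higher and 1 lower (2.5%), where 0.16% of all 18775 genes tested were higher and 0.581% lower. Unadjusted p was under 0.05 for 7 members, beside 2315 of the 18775 genes. DESeq2 called 0 higher and 2 lower, Sult1c2 and Sult1d1, and edgeR with no low-count filter 6 lower, adding Gsta2, Gstm3, Sult1b1, Sult1d1 and Sult6b2. Over all genes the number called lower also grew, from 109 to 335 with DESeq2 and 743 with no filter. Among the 40 tested members, all double-mutant libraries were below all controls for 5 (Sult1c2, Sult1d1, Sult1b1, Gstm6 and Gsta2) and above them for 0. The shares over all genes tested were 4.35% below and 3.51% above. The 20 members under the count filter are not in these counts. The members' median log2 fold change was -0.13, beside -0.0015 over all genes. In Hnf4g-removed mTEClo 0 members were higher and 1 was lower, against 0% and 0.0959% of all genes. Unadjusted p was under 0.05 for 2 members, beside 1538 of the 18775 genes. DESeq2 also called 1 member, with 41 of all genes higher and 102 lower. Of the tested members, 1 (Sult1d1) had libraries wholly below the controls and 0 wholly above, against 4.23% and 3.72% of all genes tested. In Hnf4a-removed mTEClo edgeR called 0 members, against 0.00533% of all genes higher and 0% lower, and DESeq2 called 0. No member had an unadjusted p under 0.05, beside 1130 of the 18775 genes.

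Sult1c2 had 11.9, 15.1, 23.9 and 22.1 CPM in double mutants, 16.8, 38.4 and 40.0 CPM in Hnf4g-removed, 35.2, 32.8 and 42.6 CPM in Hnf4a-removed and 41.7, 29.9, 42.0 and 63.4 CPM in control mTEClo. Every double-mutant library was below every control library and every Hnf4a-removed library, while the single mutants overlapped the controls. Against controls it fell by 1.28 in double mutants (SE 0.28, adjusted p = 0.0471), and the log2 fold changes were -0.48 in Hnf4g-removed (adjusted p = 0.736) and -0.28 in Hnf4a-removed mTEClo (adjusted p = 0.937). Between double mutants and Hnf4g-removed cells the log2 difference was -0.80 (adjusted p = 0.359), and between double mutants and Hnf4a-removed cells -1.004 (adjusted p = 0.205). The call against controls was lost in 7 of the 8 fits that left out 1 library and was kept without control replicate 2 (adjusted p 0.0437 to 0.162 over the 8).

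Sult1d1 had 2.01, 1.45, 3.96 and 1.75 CPM in double mutants, 1.43, 0.352 and 0.415 CPM in Hnf4g-removed, 6.13, 3.83 and 3.83 CPM in Hnf4a-removed and 3.97, 10.1, 6.05 and 10.7 CPM in control mTEClo. All Hnf4g-removed and double-mutant libraries were below all controls, though the highest double-mutant and lowest control library were nearly level, and the Hnf4a-removed libraries overlapped the controls. Sult1d1 fell by 3.38 in Hnf4g-removed mTEClo (SE 0.61, adjusted p = 0.0472). In double mutants its log2 fold change was -1.74 (SE 0.48, adjusted p = 0.122), and in Hnf4a-removed cells -0.75 (SE 0.51, adjusted p = 0.883). The Hnf4g-removed group did not differ by test from the other mutants, with a log2 difference of -2.63 to Hnf4a-removed cells (adjusted p = 0.208), while double mutants over Hnf4g-removed cells gave 1.64 (adjusted p = 0.344). The Hnf4g-removed call rests on 13 reads, was lost in 5 of 7 fits without 1 library (without control replicate 2, 3 or 4 or Hnf4g-removed replicate 2 or 3; adjusted p 0.0366 to 0.178) and in a fit on those groups alone.

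Sult1b1, the neighbour of Sult1d1, had 2, 0, 0 and 0 reads in double mutants, 3, 0 and 0 in Hnf4g-removed, 8, 1 and 10 in Hnf4a-removed and 7, 10, 3 and 24 in control mTEClo. The double-mutant libraries were all below the controls in CPM, but no fold is given for so few reads, and the adjusted p was 0.151 in double mutants and 0.55 in Hnf4g-removed cells. Sult6b2 had 0, 0, 1 and 0 reads in double mutants and 10, 44, 0 and 2 in controls (adjusted p = 0.219). The remaining members of smallest p were also not called. Gstm6 had 4.15, 3.48, 2.51 and 5.82 CPM in double mutants and 6.49, 6.04, 8.99 and 7.87 CPM in controls, without overlap (log2 fold change -0.88, adjusted p = 0.239). Gstp3 averaged 22.5 CPM in double mutants and 30.3 CPM in controls (log2 fold change -0.43, adjusted p = 0.263). In Hnf4g-removed cells Sult6b2 had 0, 0 and 6 reads (adjusted p = 0.713), too few for a fold, and Gsta2 gave -0.40 (adjusted p = 0.71). Sult1e1, the estrogen sulfotransferase, had 2, 2 and 9 reads in Hnf4g-removed cells and 0, 22, 2 and 50 in controls (adjusted p = 0.723), and its fitted log2 fold change moved between -2.86 and -0.82 as 1 library was left out. In Hnf4a-removed cells Ugt1a1 gave -0.53, Gstt2 0.23, Gstm4 0.30, Gstm1 0.26 and Gsta4 -0.29, with adjusted p of 0.838 to 0.882.

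The Ugt and Gst genes with the highest gate levels were not called in the mutants. Ugt2b34 averaged 108 ± 30.7 CPM in double mutants and 139 ± 25.5 CPM in control mTEClo (SD, n = 4 each). Gsta4 averaged 281 ± 83.2 CPM in double mutants and 294 ± 37.8 CPM in controls, and both genes overlapped. Gsta2, the next highest of them in the gate (196 CPM), did not overlap. It averaged 48.0 ± 14.3 CPM in double mutants and 68.8 ± 9.41 CPM in controls (log2 fold change -0.52, SE 0.21, adjusted p = 0.32). Summed over the family, the 6 Sult1 genes had 28.7 ± 13.0 CPM in double mutants, 39.7 ± 15.9 in Hnf4g-removed, 52.1 ± 5.22 in Hnf4a-removed and 60.1 ± 19.8 CPM in control mTEClo. Sult1c2 alone made up 18.3 CPM of the double-mutant and 44.25 CPM of the control sum. The 21 Gst genes had 1087 ± 129 CPM in double mutants, 1120 ± 90.9 in Hnf4g-removed, 1069 ± 166 in Hnf4a-removed and 1098 ± 80.7 CPM in control mTEClo. Of the supply, export and regulator lists, 1 gene was called in double mutants and none in the single mutants by edgeR. It was Hmox1, heme oxygenase, at 25.9 ± 3.07 CPM in double mutants and 51.6 ± 12.8 CPM in controls (log2 fold change -0.99, SE 0.18, adjusted p = 0.0174). Tuft markers summed to 9795 to 10530 CPM in double-mutant and 6837 to 9154 CPM in control mTEClo, and B cell markers to 117 to 137 CPM in double-mutant and 91.9 to 109 CPM in control mTEClo. Thymocyte markers summed to 60.5 to 77.2 CPM in Hnf4g-removed and 41.9 to 60.3 CPM in control mTEClo. The 8 genes that mark the entero-hepato gate summed to 224 to 298 CPM in double mutants, 218 to 319 in Hnf4g-removed, 472 to 698 in Hnf4a-removed and 505 to 748 CPM in control mTEClo. The part of all these markers in these results was not tested. In gate libraries the 8 genes summed to 11300 to 17720 CPM, far above any mTEClo group. Ugt2b34 and Gsta4 averaged 359 and 484 CPM there, nearer to their control mTEClo averages. How much of their mTEClo signal came from entero-hepato cells was not tested.

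**Figure D3:**
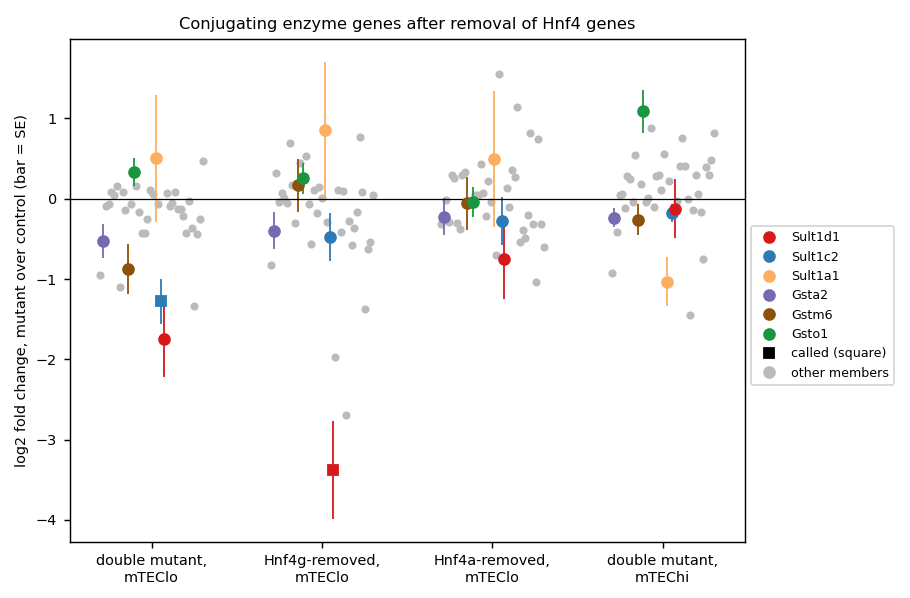
Log2 fold change over control for the members tested in each mutant group, leaving out genes with 3 or fewer reads in either group; 6 named genes are coloured with SE bars, squares were called and grey points are the other members. Sult1d1 in Hnf4g-removed mTEClo (-3.38) and Sult1c2 in double-mutant mTEClo (-1.28) are the called points.

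In mTEChi, cells with high MHC class II that include Aire-expressing mTEC, the double mutant was compared with the control. No member was called. Among tested members Gsto1 and Gstm5 had all double-mutant libraries above all controls (2 of 40, against 2.75% of all genes) and Sult1a1 had them all below (1 of 40, against 3.77%). These shares are near those of all genes. Sult1d1 overlapped the controls.

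edgeR called 0 of 40 tested members in either direction, against 0.038% of 18413 genes higher and 0.597% lower. Unadjusted p was under 0.05 for 6 members, beside 2055 of all genes tested. DESeq2 called 2, Gsto1 higher and Sult1a1 lower, and edgeR with no low-count filter 4, adding Sult1b1 and Ugt2b34 as lower. Over all genes DESeq2 called 116 higher and 323 lower and no filter 231 and 388, against 7 and 110. Gsto1, the omega-class enzyme that reduces dehydroascorbate, had 58.4, 115, 65.2 and 42.8 CPM in double mutants and 38.2, 24.2, 34.9 and 34.9 CPM in controls, without overlap (log2 fold change 1.09, SE 0.26, adjusted p = 0.113). Sult1a1 had 19.3, 9.04, 13.0 and 23.3 CPM in double mutants and 50.7, 24.4, 31.0 and 27.5 CPM in controls, also without overlap (log2 fold change -1.03, SE 0.31, adjusted p = 0.207). Gstm5 gave 0.55 (adjusted p = 0.211), Ugt2b34 -0.75 (adjusted p = 0.224), Gstt1 0.29 (adjusted p = 0.36) and Gstt2 0.30 (adjusted p = 0.419). Sult1b1 did not pass the filter here. It had 0, 3, 5 and 0 reads in double mutants and 21, 7, 19 and 36 in controls, which do not overlap in CPM.

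Sult1d1 had 14.4, 13.7, 6.48 and 5.35 CPM in double mutants and 7.50, 9.28, 14.8 and 11.7 CPM in controls, and the groups overlapped. Its log2 fold change of -0.12 (SE 0.37, adjusted p = 0.941) changed sign without control replicate 3 or double-mutant replicate 3 or 4. Sult1c2 had 77.2, 75.1, 88.2 and 81.7 CPM in double mutants and 95.5, 79.5, 93.4 and 96.6 CPM in controls, which overlap. Hmox1 was again the single called gene of the other lists, at 49.7 ± 15.9 CPM in double mutants and 145 ± 9.57 CPM in controls (log2 fold change -1.53, SE 0.21, adjusted p = 0.00346). The gate markers summed to 317 to 396 CPM in double-mutant and 842 to 1200 CPM in control mTEChi, and microfold markers to 905 to 1403 CPM in double-mutant and 1542 to 2410 CPM in control mTEChi; their part was not tested.

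Whether the double-mutant effect differed between subsets was tested as an interaction, the effect in mTEClo minus that in mTEChi. edgeR called 0 of 42 tested members, against 0.0199% of 20095 genes higher and 0.0398% lower. Unadjusted p was under 0.05 for 8 members, beside 2298 of all genes tested. DESeq2 called 1 member, Sult1c2, with 105 of all genes higher and 255 lower. Sult1c2 gave -1.10 (SE 0.29, adjusted p = 0.145) and Sult1d1 -1.61 (SE 0.60, adjusted p = 0.287). The next values were -1.33 for Gstm3, -0.54 for Gstt1, -0.68 for Gstm5 and -0.75 for Gsto1, with adjusted p of 0.288 to 0.411.

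**Figure D4:**
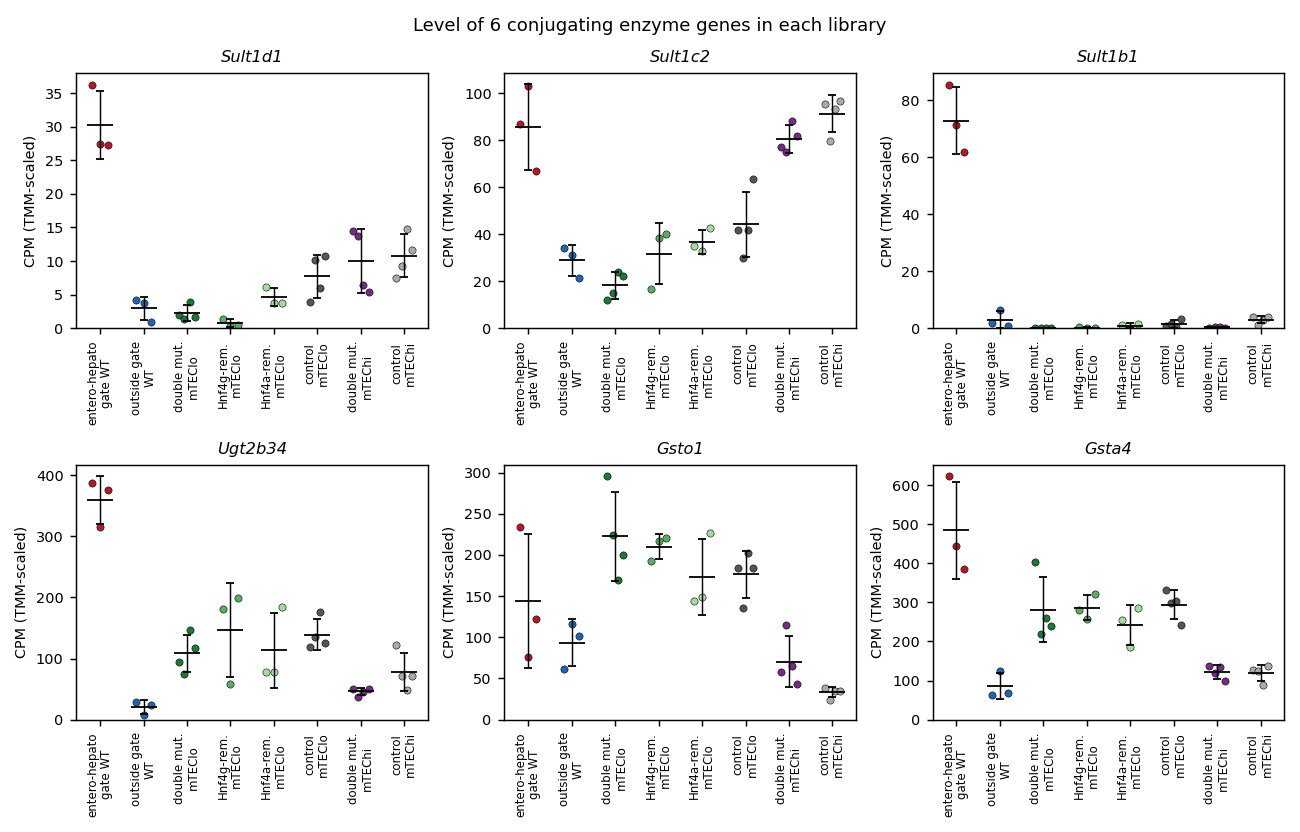
Level of 6 members in each library (points, TMM-scaled CPM), with group means and SD (black lines), for the 8 groups. Sult1d1, Sult1c2 and Sult1b1 have their lowest mTEClo values in mutant groups, Gsto1 is higher in mTEClo than in mTEChi groups, and Ugt2b34 and Gsta4 peak in the entero-hepato gate (359 and 484 CPM on average).

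The control subsets were compared next, mTEClo over mTEChi. All 7 mu-class and all 4 theta-class transferase genes and 5 sulfotransferase genes were lower in mTEClo than in mTEChi. Gsto1, Gsta4, Gstp1 and 3 Ugt genes were higher in mTEClo. Summed, the mu class had 179 ± 28.6 CPM in mTEClo and 517 ± 44.8 CPM in mTEChi, and the Sult1 genes 60.1 ± 19.8 CPM in mTEClo and 159 ± 21.9 CPM in mTEChi (SD, n = 4 each).

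Of 42 members tested, 6 rose and 19 fell in mTEClo relative to mTEChi, and 20.5% of all 20095 genes rose and 22.4% fell. The members' median log2 fold change was -0.75, beside -0.04 over all genes. The labels give no sorting day or sequencing run, so such a difference between the subsets and cell type cannot be told apart. The calls of Gstt3, Gsta3, Ugt1a6b, Sult1e1, Gstp1 and Gstm4 were lost in 4, 3, 5, 6, 4 and 5 of the 8 fits without 1 library, with highest adjusted p of 0.0722, 0.0882, 0.0888, 0.0764, 0.0864 and 0.105.

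Gstm1 had 81.7, 84.9, 94.7 and 129 CPM in mTEClo, against 319, 289, 266 and 313 CPM in mTEChi. The groups did not overlap, and Gstm1 fell by 1.61 (SE 0.14, adjusted p = 1.1e-07). Gstm3 had 3.84, 13.3, 11.6 and 25.2 CPM in mTEClo and 82.3, 79.0, 64.0 and 98.1 CPM in mTEChi (log2 fold change -2.60, SE 0.35). Gstm6 and Gstm7 fell by 2.19 and 1.65, Gstm2 by 0.93, Gstm5 by 0.84 and Gstm4 by 0.45. Members of this class share sequence, with 24.6% of the words of Gstm1 and 34.3% of those of Gstm3 found in other genes. Among theta-class genes Gstt1 fell by 1.00 (SE 0.16), Gstt2 by 0.70 (SE 0.12), Gstt3 by 0.37 (SE 0.12) and Gstt4 by 2.94 (SE 0.74). Gstt4 had 13 reads in all in mTEClo and 103 in mTEChi, so its fold is imprecise. Among alpha-class genes Gsta2 fell by 0.81 (SE 0.17) and Gsta3 by 1.27 (SE 0.45).

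Gsto1 had 185, 136, 203 and 184 CPM in mTEClo and 38.2, 24.2, 34.9 and 34.9 CPM in mTEChi. Every mTEClo library was above every mTEChi library (log2 fold change 2.41, SE 0.25, adjusted p = 7.61e-07). Gsta4 had 332, 299, 304 and 242 CPM in mTEClo and 126, 125, 88.7 and 136 CPM in mTEChi (log2 fold change 1.296, SE 0.18, adjusted p = 1.65e-05). Gstp1 rose by 0.30 (SE 0.11, adjusted p = 0.0322). Ugt1a7c rose by 1.56 (SE 0.41), Ugt1a6b by 1.92 (SE 0.68) and Ugt2b34 by 0.82 (SE 0.23), while Ugt2b36 fell by 2.13 (SE 0.62). Reads were few for Ugt1a6b in mTEChi (13 in all) and for Ugt2b36 in mTEClo (37 in all).

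Sult1a1 had 2.52, 2.87, 4.28 and 3.00 CPM in mTEClo, against 50.7, 24.4, 31.0 and 27.5 CPM in mTEChi. It fell by 3.40 (SE 0.67, adjusted p = 0.000588), the largest change of the called members. Sult1c2 had 41.7, 29.9, 42.0 and 63.4 CPM in mTEClo and 95.5, 79.5, 93.4 and 96.6 CPM in mTEChi, without overlap (log2 fold change -1.05, SE 0.20, adjusted p = 0.000477). Sult1c1, Sult1e1 and Sult5a1 fell by 2.84, 2.50 and 3.00, with few mTEClo reads, so these folds are imprecise. The mTEClo libraries held 20, 74 and 16 reads of them in all, beside 148, 404 and 122 in mTEChi. Sult1d1 was not called, at 3.97, 10.1, 6.05 and 10.7 CPM in mTEClo and 7.50, 9.28, 14.8 and 11.7 CPM in mTEChi (log2 fold change -0.50).

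**Figure D5:**
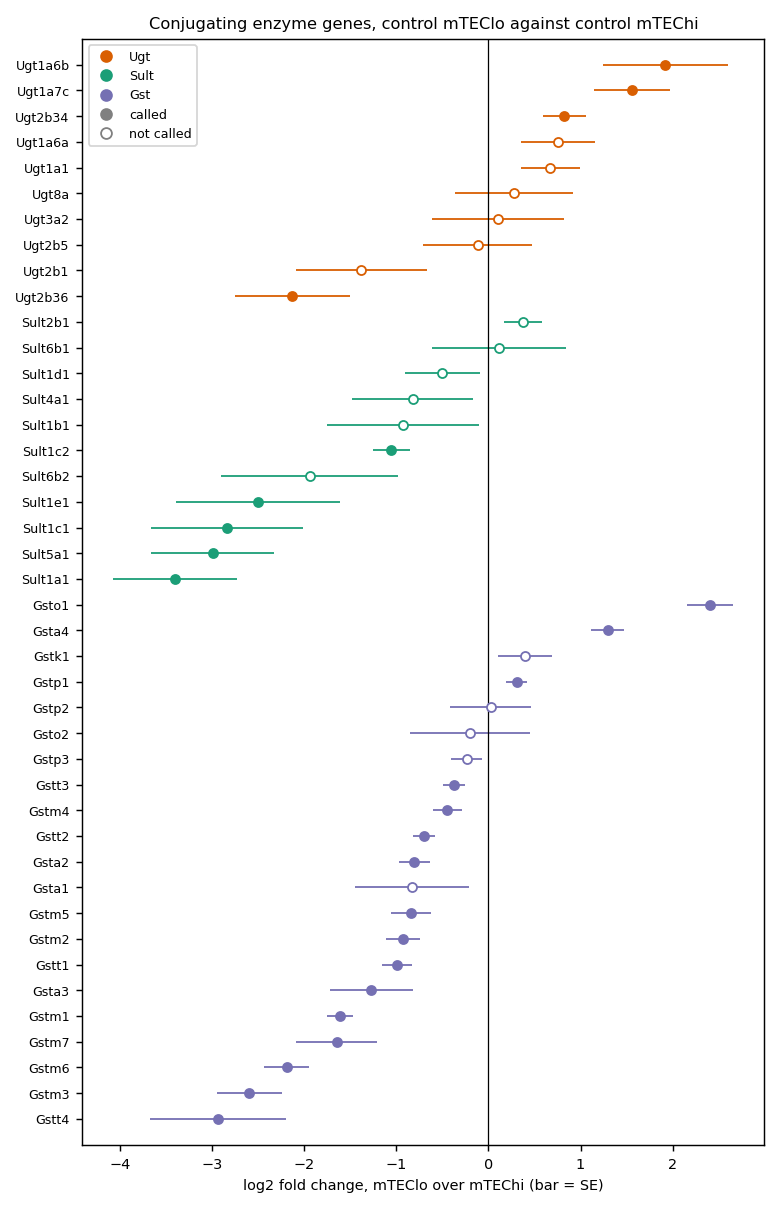
Log2 fold change, control mTEClo over control mTEChi, for the 42 members tested, with SE bars; filled points were called at an adjusted p under 0.05 and colours mark the families. All 7 Gstm and all 4 Gstt points are filled and left of 0, and Gsto1 (2.41) is furthest right.

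The supply and export lists are set beside 20.5% of all genes higher and 22.4% lower, and the glutathione counts are near those shares. Among them, 2 of 4 glucuronic acid genes fell, with Ugdh at 34.0 ± 4.44 CPM in mTEClo and 77.0 ± 12.2 CPM in mTEChi (log2 fold change -1.19, SE 0.20). Of 8 PAPS genes 1 rose and 3 fell, with Papss2 at 87.6 ± 11.2 CPM in mTEClo and 175 ± 25.8 CPM in mTEChi (log2 fold change -1.01, SE 0.14). Of 11 glutathione genes 2 rose and 2 fell, of 7 exporters 1 and 4, and of 6 listed hydrolases 2 and 3. Of 9 other conjugating enzymes 1 rose and 4 fell, and of 13 regulators and targets 3 and 6. Of 8 transferases and relatives outside the name rule 5 rose and 1 fell; the leukotriene C4 synthase gene Ltc4s averaged 97.5 ± 11.4 CPM in mTEClo and 17.2 ± 2.72 CPM in mTEChi (log2 fold change 2.49, SE 0.15) and the prostaglandin D2 synthase gene Hpgds 168 ± 21.2 CPM in mTEClo and 41.6 ± 7.32 CPM in mTEChi (log2 fold change 2.00, SE 0.14). Tuft markers summed to 6837 to 9154 CPM in control mTEClo and 330 to 544 CPM in control mTEChi, myeloid and dendritic markers to 463 to 775 CPM in mTEClo and 1660 to 2199 CPM in mTEChi, and fibroblast and pericyte markers to 39.5 to 78.7 CPM in mTEClo and 226 to 331 CPM in mTEChi. Microfold markers summed to 3118 to 4325 CPM in mTEClo and 1542 to 2410 CPM in mTEChi, endothelial markers to 79.8 to 130 CPM in mTEClo and 36.4 to 48.4 CPM in mTEChi, and ciliated markers to 125 to 187 CPM in mTEClo and 72.1 to 111 CPM in mTEChi. Thymocyte markers summed to 41.9 to 60.3 CPM in mTEClo and 115 to 140 CPM in mTEChi, and gate markers to 505 to 748 CPM in mTEClo and 842 to 1200 CPM in mTEChi. Every gene of these lists had reads in both groups. Their part in these differences was not tested.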

How the data were processed

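RNA from about 1000 flow-sorted mTEC per library, depleted of CD45+ cells, was amplified with an oligo(dT) Smart-seq method and 18 PCR cycles, per the labels' protocols; the library kit does not mark strand. The authors deposited raw read counts per gene for 28 libraries; STAR 2.7.3a, featureCounts and mm10 are named in the submitters' processing notes, while no source used here gives the annotation or the counting settings. Every column was matched to 1 sample. Gene positions and shared sequence come from GENCODE M21 and promoters from RefSeq. Sharing was measured with words of 38 bases, the read length.

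Each comparison was fitted on all genes with edgeR 4.0.16 (R 4.3.3; TMM, filterByExpr with a minimum count of 10 and total of 15, quasi-likelihood test, two-sided), with Benjamini-Hochberg adjustment over all genes tested and a threshold of 0.05. The 4 mTEClo genotypes shared one fit, and the subset comparison and interaction used the 16 control and double-mutant libraries. Printed CPM are scaled over all libraries, whereas fold changes come from each comparison's own fit. The procedure was tested on simulated data. Alternatives were DESeq2 1.42.0, its size factors (RLE), no low-count filter, a replicate block, fits on the compared groups only and each library left out; plain library totals and contrasts between mutants were added after seeing the data. Named genes were the called members, or, with fewer than 6 called, those of smallest p up to that number, plus Sult1d1. Sult1c2 was followed across the groups after it was called in these data. The members and lists were chosen with earlier results of these data known.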

Additional observations from a re-analysis of the deposited data

Results flagged for a closer look

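In 6 of 75 checked sets of 4 libraries, 1 library stood apart from its 3 replicates for a conjugating enzyme gene, where chance alone does so in about 1 of 20. Gstm4 had 36.0 CPM in control mTEClo replicate 1, against 23.0 to 25.2 CPM in the other 3 libraries. Gstm5 had 16.6 CPM in control mTEChi replicate 2, against 19.3 to 19.7 CPM in the others. Gstt4 had 5.46 CPM in control mTEChi replicate 4, against 2.93 to 3.28 CPM. Ugt2b36 had 8.60 CPM in control mTEChi replicate 1, against 4.89 to 5.21 CPM. Sult1b1 had 0.268 CPM in double-mutant mTEClo replicate 1 and 0 in the other 3 libraries. Sult6b2 had 0.132 CPM in double-mutant mTEClo replicate 3 and 0 in the others. These values stand for 2 reads and 1 read, and with the other libraries all at 0 any read would stand apart.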

How the results depend on the processing

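Direction held for each member recomputed in the 7 planned comparisons under all alternatives, except Sult1d1 in double-mutant mTEChi. Its log2 fold change ranged from -0.3546 to 0.0862 over fits without 1 library, being positive without control replicate 3 or double-mutant replicate 3 or 4. In the added contrast of Hnf4g-removed over Hnf4a-removed mTEClo, Sult1c2 ranged from -0.4108 to 0.0889, its positive end without Hnf4g-removed replicate 1. DESeq2 and the fit with no low-count filter called 2 and 6 members lower in double-mutant mTEClo, 1 and 1 higher and 1 and 3 lower in double-mutant mTEChi, and 1 and 2 lower in the interaction. Without 1 library, the members called lower ranged from 1 to 2 in the gate comparison and from 0 to 1 in double-mutant and in Hnf4g-removed mTEClo. Same-numbered libraries did not deviate together (correlations of -0.022 to 0.183). This does not tell whether they shared an animal or a sort, which the labels do not state. With a replicate block 0 members were called in Hnf4g-removed mTEClo, as in a fit on those groups alone. In the gate comparison the block called 22, Ugt1a7c being lost and Gstm4 and Gstt2 added. With no low-count filter 28 were called there, 20 of them shared. The cause was not tested.

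Counts over all genes were less stable. In double-mutant mTEClo DESeq2 called 121 genes higher and 335 lower, no filter 224 and 743, and a fit on the compared groups 55 and 240, against 30 and 109; the replicate block called 173 lower. In Hnf4g-removed mTEClo DESeq2 called 41 and 102 and no filter 196 and 286, against 0 and 18, and in Hnf4a-removed mTEClo DESeq2 called 5 and 3 and no filter 93 and 119, against 1 and 0. In double-mutant mTEChi DESeq2 called 116 and 323 and no filter 231 and 388, against 7 and 110, and for the interaction DESeq2 called 105 and 255 and no filter 48 and 273, against 4 and 8. With 3 to 4 libraries a group and few reads for Sult1b1, Sult6b2 and Sult1d1 in mutants, depth limits what these comparisons can show.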
